A study of Hipposideros armiger with 2 samples.

Results

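The genes described here are those of serum albumin and of 9 other plasma proteins that hepatocytes secrete. They are ALB, TTR, RBP4, AHSG, FETUB, AMBP, GC, AGT, SERPINA6 and SERPINA7. Most of these proteins carry, store or give rise to small molecules and hormones, whereas AHSG and FETUB bind mineral or inhibit proteases. All 10 genes are called carrier proteins or carriers here for short. They were taken by name, in upper case, from gene expression tables of poly(A)-selected RNA, and 9 of the 10 had at least 1 entry among the 12783 distinct names in the tables. SERPINA7, which codes for thyroxine-binding globulin, was not a name in either table, although RefSeq lists all 10 symbols for the Hipposideros armiger assembly ASM189008v1. The libraries came from 2 wild-caught great Himalayan leaf-nosed bats (Hipposideros armiger) of 1 cave, CW in Guangdong Province. Both are labelled as wild type liver exposed to heavy metals. The design text describes the animals as adult males, and the sample labels repeat this for replicate 2. Both libraries belong to 1 group, unexposed animals or other caves were not analysed here, and the comparison is therefore between replicate 1 and replicate 2, without a test.

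Plasma carrier proteins are made on the rough endoplasmic reticulum of hepatocytes and released into the blood. Albumin carries fatty acids, bilirubin and metal ions such as zinc and copper and sets much of the osmotic pressure of plasma. Retinol leaves the liver on RBP4, which circulates bound to transthyretin (TTR), and transthyretin also carries thyroid hormone. GC carries vitamin D, SERPINA6 carries cortisol, and AGT is the precursor of the angiotensin peptides.

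The tables list assembled genes, which are clusters of transcripts from a de novo Trinity assembly, and the name of each is its best Swiss-Prot protein match. Levels are given as TPM, a length-corrected share of all transcripts, summed over all assembled genes of a name. Replicate 1 held 18741214 rounded expected counts and replicate 2 held 18778280, so depth was alike. Before the carrier proteins are described, the label needs a check against markers. Of 16 hepatocyte enzymes, 15 were found, and they summed to 5605 TPM in replicate 1, against 289 TPM in replicate 2, led by ASS1 (1003 and 33.1 TPM), HPD (748 and 61.4 TPM) and PCK1 (772 and 30.6 TPM). Of 14 lung and airway genes, 13 were found, and they summed to 12461 TPM in replicate 1, against 19844 TPM in replicate 2, led by SCGB3A1 (8069 and 12898 TPM), SFTPC (2554 and 4047 TPM) and AGER (456 and 729 TPM). All 13 lung and airway genes found had counts in both libraries, but 2 secreted airway genes, named after their values were seen, were nearly absent from replicate 1: BPIFA1 had 1 count in replicate 1 and 224 in replicate 2, and SCGB1A1 had 1 and 24. Both libraries labelled liver thus held lung and airway transcripts, and replicate 2 held few hepatocyte transcripts. Their part in the values below was not tested. In bulk RNA, fewer cells of a type and less RNA per cell cannot be told apart.

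All 9 carrier proteins found were far higher in replicate 1 than in replicate 2. Together they summed to 9900.5 TPM in replicate 1, against 231 TPM in replicate 2, and held 0.690% of counts (Wilson 95% interval 0.686% to 0.693%) and 0.0197% (0.0191% to 0.0204%). For the comparison, counts were scaled by TMM factors and log2 ratios of CPM + 1 (CPM are counts scaled to the library total, with a pseudocount of 1) were centred on the median of all names. On this scale 9 of 9 carrier proteins were over 2-fold higher in replicate 1, beside 5.16% of the 11289 names tested. Names tested had a mean of at least 1 CPM. SERPINA6, at 18.5 and 0.533 scaled CPM in replicate 1 and replicate 2, passed this filter only through replicate 1. Its place in the 9 of 9 was thus partly set by the filter. Over 16-fold higher were 8 of the 9, beside 0.93% of names tested. The median log2 ratio of the 9 was 5.04, with a range from 3.66 for SERPINA6 to 6.11 for FETUB. Only 3 of the names tested were over 2-fold lower in replicate 1, or 0.0266%, and 0 of them were carrier proteins. These are ratios of 1 library to 1 library and have no replicate check. Intervals given below for folds are exact 95% intervals on scaled counts, without a pseudocount, and cover counting error only.

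**Figure D1:**
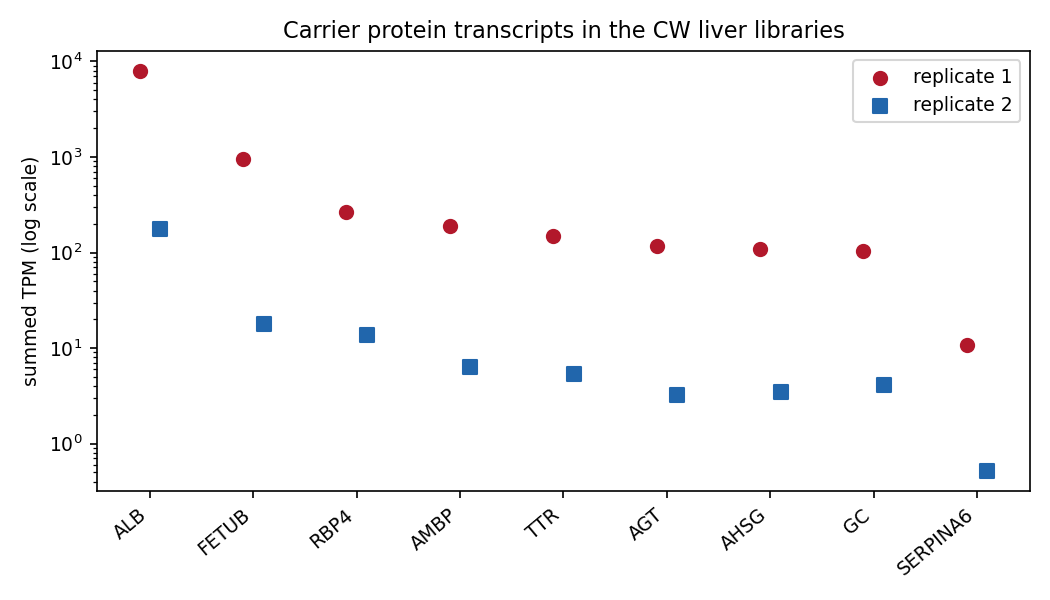
Summed TPM (log axis) of each carrier protein gene found, as 1 red circle for replicate 1 and 1 blue square for replicate 2. Every circle lies above its square, and ALB is the highest of them in both libraries at 7990 and 176 TPM in replicate 1 and replicate 2.

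Albumin was the most abundant of the group. ALB was at 7990 TPM in replicate 1, against 176 TPM in replicate 2, with 83468 and 2592 expected counts in replicate 1 and replicate 2. It took rank 16 among all names in replicate 1 and rank 341 in replicate 2. The fold of scaled counts was 39.0 (37.5 to 40.6), and the log2 ratio was 5.26. Albumin was the highest carrier transcript in both libraries, and every other one stood below 20 TPM in replicate 2.

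The albumin total was spread over 9 assembled genes, and their lengths bear on its level. The longest, of 2605 bases with 17 transcripts, held 84.6% of ALB counts but 14.7% of ALB TPM in replicate 1, at 1176 TPM in replicate 1, against 44.4 TPM in replicate 2. One fragment of 293 bases held 14.1% of ALB counts and 77.4% of ALB TPM in replicate 1, at 6180 TPM in replicate 1, against 112 TPM in replicate 2. The authors' TPM divide by a length shorter than the listed one. In replicate 1, counts per TPM were fitted in 2634 assembled genes of at least 1000 bases with 1 transcript. There the length was shorter by about 305 bases. This fit cannot hold for fragments shorter than 305 bases. For the fragment of 293 bases the length implied by its counts and TPM in replicate 1 was 72.6 bases, against 2288 bases for the longest assembled gene. Without that fragment, ALB stood at 1809 TPM in replicate 1, against 64.1 TPM in replicate 2.

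The albumin fragments did not all share 1 ratio. The longest assembled gene was 36.1-fold higher in replicate 1 (34.6 to 37.6), whereas the fragment of 293 bases was 75.5-fold higher (65.4 to 87.6), and these intervals did not overlap. Fragments of 366, 278, 257 and 241 bases had 348, 166, 329 and 198 rounded counts in replicate 1 and 7, 2, 7 and 5 in replicate 2. In contrast, 3 low ALB fragments had similar counts in both libraries. The fragment of 440 bases, whose best match is a macaque albumin, had 6.85 expected counts in replicate 1 and 7 in replicate 2. Those of 280 and 245 bases had 3.15 and 2 expected counts in replicate 1, and 3 and 1 in replicate 2. With so few counts, their intervals give no direction. The folds were 1.21 (0.36 to 4.05) for 440 bases, 1.21 (0.16 to 9.04) for 280 bases and 2.42 (0.13 to 143) for 245 bases. For the fragments of 440 and 280 bases the intervals lay below that of the longest assembled gene. For the fragment of 245 bases the interval included it.

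The retinol and thyroid hormone carriers followed. RBP4, the retinol carrier of plasma, was at 267 TPM in replicate 1, against 13.6 TPM in replicate 2, from 4248 and 193 expected counts. Its fold of 26.7 (23.1 to 31.0) was the lowest of the 9 on scaled counts, and its interval lay below that of ALB. Its main assembled gene of 941 bases was 28.2-fold higher in replicate 1 (24.3 to 32.9). A further RBP4 assembled gene of 816 bases, best matched by mouse, had 12 counts in replicate 1 and 11 in replicate 2 and made up 5.70% of RBP4 counts in replicate 2. TTR, which holds RBP4 in the circulation, was at 149 TPM in replicate 1, against 5.42 TPM in replicate 2. Its 1114 and 39 counts gave a fold of 34.6 (25.1 to 48.9), an interval that overlaps that of RBP4. All TTR counts lay in 1 assembled gene of 600 bases; the other, best matched by mouse, was listed at 0 in both libraries.

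The fetuins, cystatin-like proteins that bind mineral or inhibit proteases, included the largest ratio. FETUB, an inhibitor of the egg-coat protease ovastacin, was the second carrier in abundance at 964 TPM in replicate 1, against 18.1 TPM in replicate 2. Its 25427 and 420 expected counts gave a fold of 73.3 (66.6 to 80.9), above the intervals of the other carriers except that of SERPINA6, which reached 70.4. AHSG, or fetuin-A, which keeps calcium phosphate in solution, was at 108 TPM in replicate 1, against 3.46 TPM in replicate 2. Its fold was 39.7 (33.4 to 47.4), so the fold of FETUB was larger than that of its relative beyond counting error. In replicate 1 the FETUB assembled gene of 1392 bases had 939 TPM, close to the 1176 TPM of the longest ALB assembled gene.

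AMBP codes for a precursor that is cut into the lipocalin alpha-1-microglobulin and the protease inhibitor bikunin. It was at 188 TPM in replicate 1, against 6.42 TPM in replicate 2, with 4921 and 148 counts and a fold of 40.3 (34.2 to 47.7). GC, the vitamin D-binding member of the albumin family, was at 105 TPM in replicate 1, against 4.15 TPM in replicate 2, with 3375 and 119 counts and a fold of 34.3 (28.6 to 41.6). Both intervals overlap that of ALB. For AMBP and GC the whole count lay in 1 assembled gene, and the other entry, best matched by mouse, was at 0 in both libraries.

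AGT, the angiotensin precursor, was at 118 TPM in replicate 1, against 3.24 TPM in replicate 2. It had 1915 and 50 expected counts, with a fold of 46.4 (35.0 to 62.7). Its assembled gene of 2039 bases held 93.2% of AGT counts but 43.0% of AGT TPM in replicate 1. Fragments of 394 and 276 bases had 65 and 17 rounded counts in replicate 1 and 0 in replicate 2. With replicate 2 set at a floor of 3 counts, their folds were 26.2 for 394 bases and 6.86 for 276 bases. The exact 95% lower limits of these folds were smaller, at 20.7 for 394 bases and 4.997 for 276 bases. SERPINA6, corticosteroid-binding globulin, was the lowest carrier at 10.8 TPM in replicate 1, against 0.52 TPM in replicate 2. Its 316 and 11 counts gave a fold of 34.8 with a wide interval (19.2 to 70.4). Its log2 ratio of 3.66 is held down by the pseudocount, since replicate 2 lay at 0.533 scaled CPM; with a pseudocount of 0.1 CPM the ratio was 4.87.

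**Figure D2:**
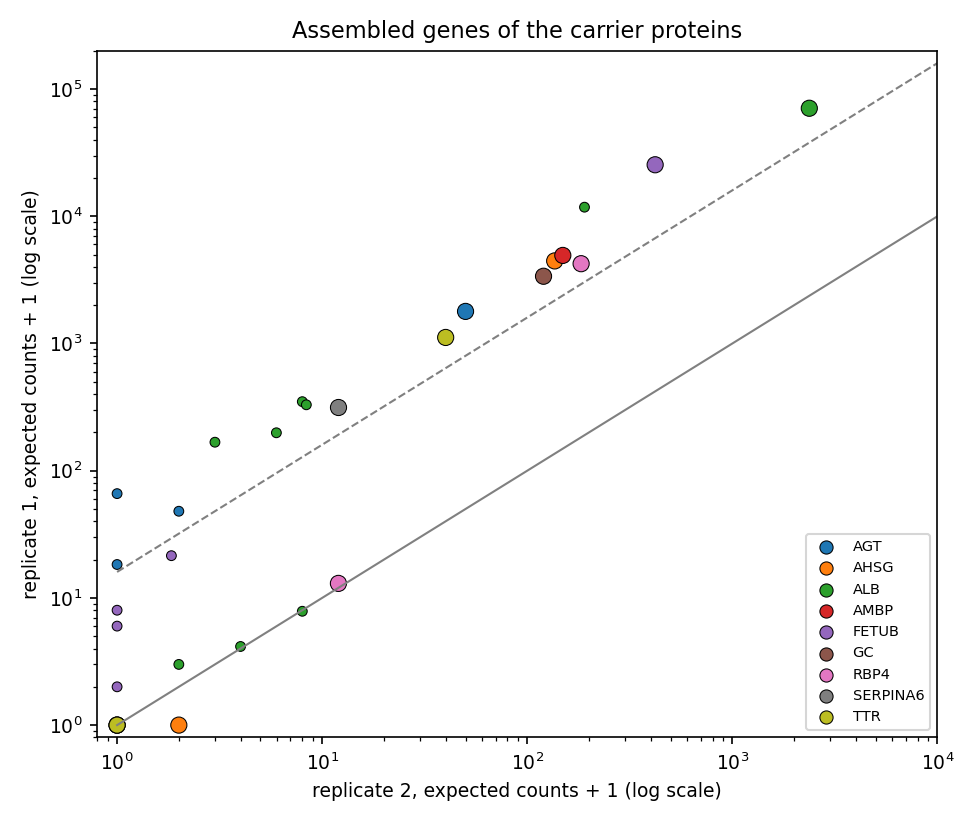
Expected counts + 1 of each of the 29 assembled genes with a carrier protein name, replicate 1 on the vertical and replicate 2 on the horizontal axis (both log), with large points for at least 500 bases and small points for shorter ones. The solid line marks equal and the dashed line 16-fold unscaled values; the abundant assembled genes lie above the dashed line, and a few low ones of ALB, RBP4 and AHSG lie close to the solid line.

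Among the 29 assembled genes of the group, 14 had at least 100 counts over both libraries, and their folds ran from 28.2 to 101. Of the others, 12 had between 1 and 99 counts and 3 had none. Of the 16 that reached a mean of 1 CPM, 16 were over 2-fold higher in replicate 1, beside 6.81% of the 22025 assembled genes tested. Over 16-fold higher were 9, beside 0.772%. Both counts used log2 ratios of CPM + 1, where the pseudocount lowers the ratios of entries with few counts. The folds from 28.2 to 101 carry no pseudocount. The 16 of 16 was partly set by the filter. Entries with few counts in replicate 2, such as AGT of 394 bases (65 and 0 rounded counts), passed only through replicate 1. Low entries with similar counts, such as RBP4 of 816 bases (12 and 11), were left out. Entries of at least 500 bases held 89.9% of the group's counts in replicate 1 and 94.0% in replicate 2, but 30.2% of its TPM in replicate 1 and 42.4% in replicate 2. By best match, 7 assembled genes pointed to mouse proteins and together had 37 counts in replicate 1 and 13 in replicate 2, out of 129239 and 3708. The species of a best match is that of the protein found, which need not be that of the RNA.

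**Figure D3:**
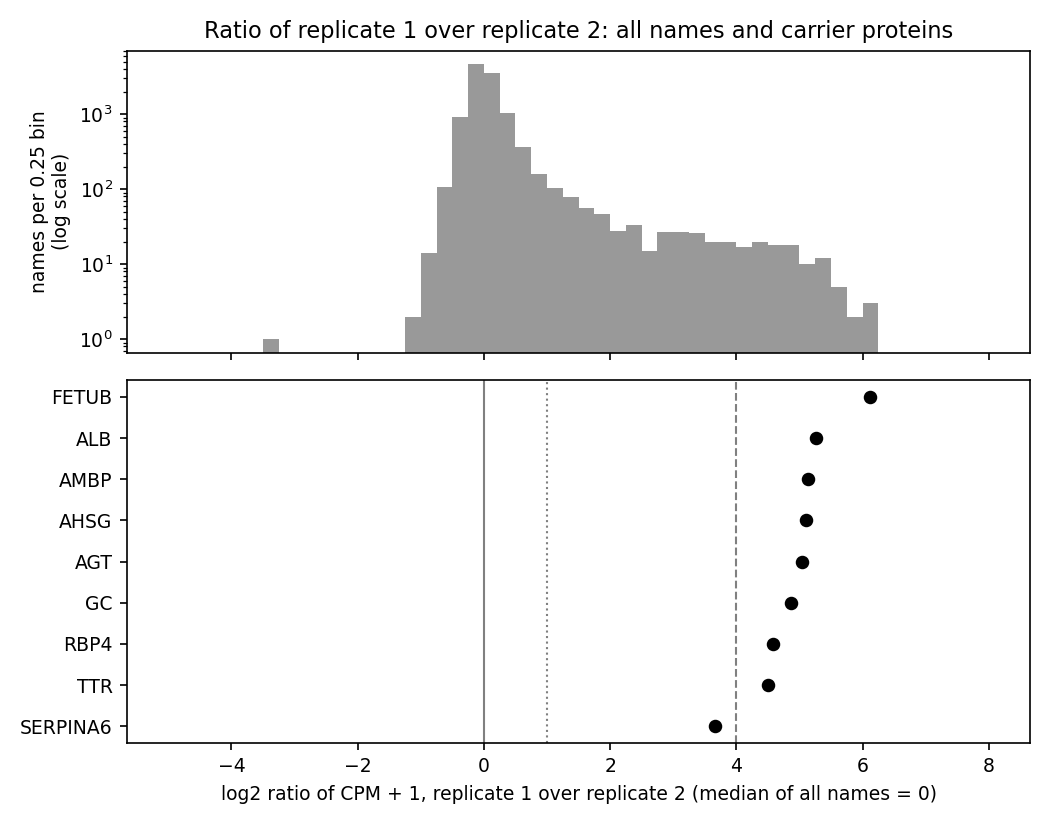
Upper panel, number of names (log axis) in bins of the log2 ratio of replicate 1 over replicate 2; lower panel, the ratio of each carrier protein on the same axis, with lines at 0, at 2-fold (dotted) and at 16-fold (dashed). Most names lie near 0, a long tail reaches to the right, and the 9 carrier proteins lie between 3.66 and 6.11 in that tail.

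The order of the carriers by summed TPM was much the same in both libraries. From the highest down it was ALB, FETUB, RBP4, AMBP and TTR in both, with SERPINA6 last in both; the same held for the TPM of the longest assembled gene of each name. With TPM recomputed from counts over full length, ALB, FETUB, RBP4 and AMBP kept this order, but TTR stood below AHSG and GC in both libraries, at 145, 169 and 157 TPM in replicate 1 and 5.51, 5.61 and 6.02 TPM in replicate 2. By summed TPM, AGT, AHSG and GC were close, at 118, 108 and 105 TPM in replicate 1 and 3.24, 3.46 and 4.15 TPM in replicate 2, so that their order was reversed. On the longest assembled gene AGT was the lowest of these 3 in both libraries, at 50.9 TPM in replicate 1, against 2.30 TPM in replicate 2. Each carrier's SD over the 2 libraries exceeded its mean, for example 4083 ± 5525 TPM for ALB and 491 ± 669 TPM for FETUB (mean ± SD, n = 2). This SD reflects the difference between the libraries that all 9 carriers share, so the order was read within each library and not from the means. ALB stood above FETUB, FETUB above RBP4, RBP4 above AMBP and AMBP above TTR in 2 of 2 libraries, which is too few for a test. The Spearman rho of TPM across the 9 genes was 0.933, as a description over genes that share their libraries. From lowest to highest carrier, TPM spanned 739-fold in replicate 1 and 338-fold in replicate 2.

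Set against albumin within a library, the other 8 carriers summed to 23.9% of ALB TPM in replicate 1 and 31.2% in replicate 2. This figure rests on the short ALB fragment. On the longest assembled gene of each name, the other 8 summed to 155% of ALB in replicate 1 and 118% in replicate 2, and on counts to 54.8% in replicate 1 and 43.1% in replicate 2. On the longest assembled gene, FETUB was at 79.9% of ALB in replicate 1 and 39.4% in replicate 2. RBP4 went the other way, at 22.7% in replicate 1 and 28.6% in replicate 2. TTR was at 12.7% and 12.2% of ALB, AHSG at 9.17% and 7.70%, and GC at 8.89% and 9.34%, in replicate 1 and replicate 2. The relation of most carriers to albumin was thus similar in both libraries on this scale, and FETUB differed most. On summed TPM the pattern was another. There FETUB was at 12.1% and 10.3% of ALB in replicate 1 and replicate 2, and every other carrier was lower in replicate 1. RBP4 was at 3.35% and 7.75%, TTR at 1.87% and 3.08%, GC at 1.31% and 2.36%, and SERPINA6 at 0.135% and 0.295%.

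**Figure D4:**
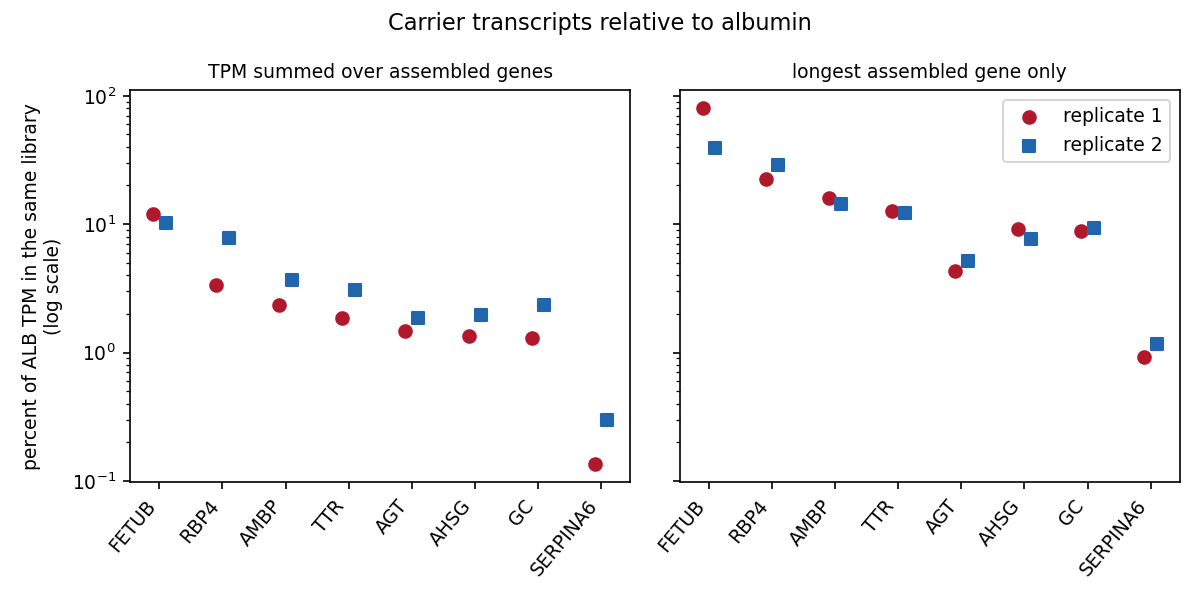
TPM of each carrier as a percent of ALB TPM in the same library (log axis), with red circles for replicate 1 and blue squares for replicate 2; the left panel sums all assembled genes of a name and the right panel uses the longest only. FETUB is at 12.1% and 10.3% of ALB on the left and at 79.9% and 39.4% on the right, in replicate 1 and replicate 2.

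Relatives of the carriers were described from lists of plasma proteins. The albumin family members AFP, made by fetal liver, and AFM, a vitamin E carrier, were low, at 1.79 and 7.93 TPM in replicate 1 and 0.48 and 0.69 TPM in replicate 2; they lie below the level set for naming and were named after their values were seen. Of 13 cystatin, serpin and lipocalin relatives, 10 were over 2-fold higher in replicate 1, beside 5.16% of names tested. None were over 2-fold lower. Their median log2 ratio was 3.84. KNG1, the kininogen related to the fetuins, was at 1172 TPM in replicate 1, against 25.4 TPM in replicate 2. This came from 7948 and 211 expected counts over 8 assembled genes. FETUB had 964 TPM in replicate 1 from 25427 expected counts, so summed TPM does not safely rank KNG1 against it. The part of short fragments in the KNG1 level was not tested. ORM1, an acute phase lipocalin, was at 1107 TPM in replicate 1, against 24.2 TPM in replicate 2. The exceptions were 3 lipocalins, with log2 ratios of -0.21 for LCN2, -0.31 for PTGDS and -0.11 for APOD; PTGDS and APOD were named after their values were seen. LCN2, which binds bacterial siderophores, was at 2019 TPM in replicate 1, against 3158 TPM in replicate 2.

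The inter-alpha-trypsin inhibitor heavy chains join the bikunin made from AMBP. Of 4 heavy chain genes, 3 were over 16-fold higher in replicate 1, beside 0.93% of names tested, with a list median of 4.19. ITIH3 was at 306 and 16.2 TPM and ITIH2 at 16.4 and 0.64 TPM in replicate 1 and replicate 2. ITIH4, which does not carry bikunin, was at 871 and 39.5 TPM. In replicate 1, ITIH4 had 6244 expected counts over 8 assembled genes and ITIH3 had 5593 over 11. Their summed TPM thus does not safely rank them. ITIH1 had a log2 ratio of 0.58, with 55.0 and 48.5 TPM in replicate 1 and replicate 2, spread over 7 assembled genes.

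Receptors that take up or recycle the carriers showed 2 patterns. The hepatocyte asialoglycoprotein receptor genes ASGR1 and ASGR2, which clear desialylated plasma proteins, were at 84.0 and 14.5 TPM in replicate 1 and at 1.91 and 0.21 TPM in replicate 2. Of the 8 receptor genes found these were the 2 over 2-fold higher in replicate 1, beside 5.16% of names tested. ASGR2, with 76.8 and 1 expected counts in replicate 1 and replicate 2, passed the filter of 1 CPM only through replicate 1. The list median was 0.23. FCGRT, the receptor that returns albumin to the blood, was at 56.7 TPM in replicate 1, against 69.5 TPM in replicate 2, with a log2 ratio of 0.11. Its light chain B2M was at 1129 and 1358 TPM in replicate 1 and replicate 2, with a log2 ratio of 0.15. LRP2, or megalin, which takes up albumin, RBP4 and GC in kidney, was at 21.8 and 54.7 TPM in replicate 1 and replicate 2 but had a log2 ratio of -0.19 on counts. AMN (26.6 and 13.9 TPM), DAB2 (13.2 and 17.9 TPM) and LRPAP1 (111 and 137 TPM), which serve megalin and cubilin or fold megalin, had ratios of 0.31, 0.40 and -0.01, from levels in replicate 1 and replicate 2. No assembled gene had the name of CUBN.

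Genes that act on the cargo of the carriers mostly had ratios near that of all names. Among 7 genes of the angiotensin system found of 12, AGTR1, the angiotensin II receptor, had the highest ratio at 1.79, with 187 counts in replicate 1 and 50 in replicate 2, and it was named after its values were seen. ACE, which makes angiotensin II and is abundant on lung capillaries, was at 67.2 TPM in replicate 1, against 110.1 TPM in replicate 2, with a log2 ratio of -0.31. MME (33.0 and 40.7 TPM), ATP6AP2 (26.4 and 28.0 TPM) and ANPEP (16.9 and 23.4 TPM) had ratios of -0.17, 0.20 and -0.05, from levels in replicate 1 and replicate 2.

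The 11 retinoid genes tested had a median log2 ratio of 0.01. ALDH1A1 (96.3 and 62.1 TPM in replicate 1 and replicate 2), which makes retinoic acid, had a ratio of 0.43, DHRS3 (37.6 and 49.8 TPM) one of -0.02 and RDH10 (20.7 and 28.2 TPM) one of -0.17. RARA (13.9 and 20.9 TPM in replicate 1 and replicate 2), RARG (11.1 and 13.0 TPM), RXRA (10.9 and 6.37 TPM) and ALDH1A2 (14.8 and 11.0 TPM) had ratios of -0.08, -0.06, 0.59 and 0.09.

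Of 5 thyroid hormone genes tested, DIO1, the liver enzyme that activates thyroxine, was the 1 over 2-fold higher in replicate 1, at 5.90 and 0.50 TPM in replicate 1 and replicate 2 with a ratio of 2.96; it was named after its values were seen. The lipogenic thyroid hormone target THRSP (18.2 and 24.7 TPM in replicate 1 and replicate 2) had a ratio of 0.28. Of 6 glucocorticoid genes, HSD11B1, which regenerates cortisol, was at 38.0 TPM in replicate 1, against 22.4 TPM in replicate 2, with a ratio of 1.14, and was the 1 over 2-fold higher. The cortisol targets TSC22D3 (101 and 139 TPM in replicate 1 and replicate 2), PER1 (46.6 and 73.2 TPM) and FKBP5 (30.7 and 20.1 TPM) had ratios of -0.11, -0.11 and 0.09. Of the vitamin D genes, CYP27A1, a sterol and vitamin D hydroxylase, was the 1 tested, at 36.6 TPM in replicate 1, against 7.56 TPM in replicate 2, with a ratio of 1.83.

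**Figure D5:**
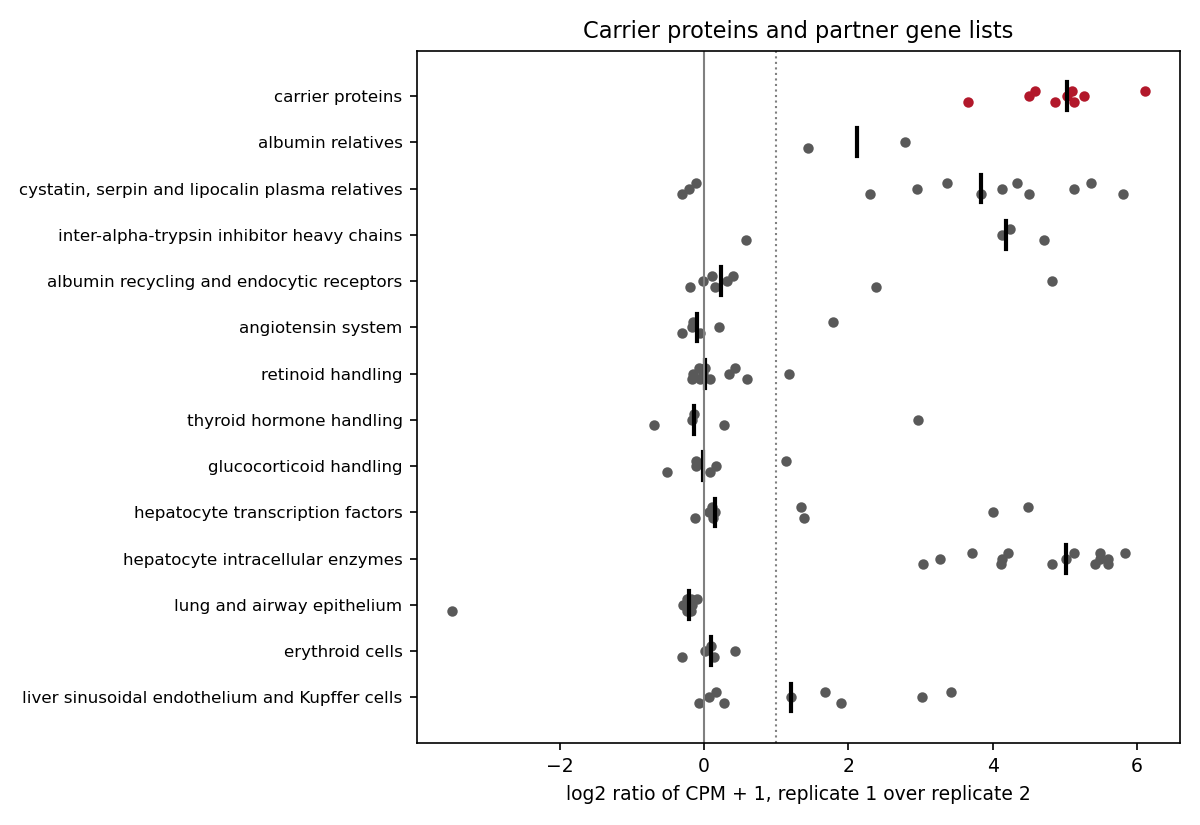
Log2 ratio of replicate 1 over replicate 2 for each tested gene of the carrier proteins (red) and of the partner and marker lists with at least 2 tested genes (grey), with a black bar at each list's median and a dotted line at 2-fold. The carrier proteins (median 5.04) and hepatocyte enzymes (5.02) lie far to the right, while retinoid, angiotensin and glucocorticoid genes lie near 0.

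Hepatocyte transcription factors, several of which bind the albumin and transthyretin promoters in liver, were split. The highest of the list, CEBPB, FOXA1 and DBP, were at 51.9, 31.4 and 25.5 TPM in replicate 1 and at 58.6, 38.0 and 35.6 TPM in replicate 2, with log2 ratios of 0.15, 0.12 and -0.13. Of 9 tested, 4 were over 2-fold higher in replicate 1, beside 5.16% of all names tested, with a list median of 0.15. They were ONECUT1 (4.50), HNF4A (4.01), PROX1 (1.39) and NR1H4 (1.34), named after their values were seen. FOXA2 had 11.8 expected counts in replicate 1 and 0 in replicate 2, and fell under the filter of 1 CPM.

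All 15 hepatocyte enzymes found were over 2-fold higher in replicate 1, beside 5.16% of names tested. Their median log2 ratio of 5.02 lay close to the 5.04 of the carriers. Of 9 liver sinusoidal endothelium and Kupffer cell genes, 5 were over 2-fold higher, beside the same 5.16%, with a median of 1.20. The highest by TPM were LYVE1, at 28.8 TPM in replicate 1, against 38.0 TPM in replicate 2, and CLEC4G, at 60.4 and 3.94 TPM. Lung and airway genes had a median of -0.21 and erythroid genes 0.10, with HBA at 17715 TPM in replicate 1, against 21330 TPM in replicate 2. Markers of other tissues known to make carrier proteins were few. Of 6 kidney tubule genes, 0 were found, and of 6 choroid plexus and retinal pigment epithelium genes, a known source of transthyretin, CLIC6 alone was found, at 10.9 and 18.3 TPM in replicate 1 and replicate 2.

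Genes with a ratio most like that of the carriers were sought among 854 other names with a mean of at least 100 CPM, by the distance of their log2 ratio from the carrier median over the 2 libraries. The closest 8 were AGXT, APOH, CPS1, APOC3, APOC2, APOA2, MAT1A and GSTA2, with ratios between 4.77 and 5.35. Of these, CPS1 was at 310 TPM in replicate 1, against 8.44 TPM in replicate 2, and APOC3 at 1091 and 44.6 TPM. Of the 854 names, 14 lay within 0.5 of the carrier median and 31 were over 16-fold higher in replicate 1.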

How the data were processed

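Both libraries of the 1 group were used, with replicate numbers from the sample titles. The authors deposited 1 table per library with 55378 Trinity assembled genes. Per the submitters' processing notes, cutadapt 1.9 was used for both libraries and the mouse build mm10 is listed for replicate 1; no source used here gives the quantifier. The deposited expected counts, so marked per the file headers, have decimals and were rounded. The authors' other value column was read as TPM because it sums to 996837 and 996239. The deposited length column was read as bases. Values were summed over assembled genes of 1 upper-cased name; rows without a name held 8.70% and 9.69% of counts and stayed in the library totals.

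TMM factors came from edgeR 4.0.16 in R 4.3.3 (0.910 and 1.10). Log2 ratios of replicate 1 over replicate 2 used CPM + 1 for names with a mean of at least 1 CPM, less their median of 0.01. Names with few counts in replicate 2 could pass this filter through replicate 1 alone, in the partner and marker lists as well. No p-value was computed, since 1 library was compared with 1 library. The pseudocount understates ratios of low genes. Exact 95% intervals of folds and Wilson intervals of shares cover counting error only, because reads were not tagged by molecule. The ratio procedure was tested on simulated data for well-expressed genes only. Alternatives were DESeq2 1.42.0 size factors, library size, pseudocounts, filters, TPM, and choices of assembled genes. The named genes were the carriers, members of the partner lists reaching 10 TPM in either library, up to 3 with the highest mean of each other list, and the 8 closest ratios. Some genes that this rule takes are not reported here. The members and lists were chosen with earlier results of these data known. Intervals used scipy 1.17.1 and tables pandas 2.3.3 with numpy 2.4.6, in Python 3.11.15; plots used matplotlib 3.10.9.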

Additional observations from a re-analysis of the deposited data

How the results depend on the processing

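All 9 carriers stayed over 2-fold higher in replicate 1 under every alternative that tested them; SERPINA6 was not tested at a mean of at least 10 CPM. The median log2 ratio of 5.04 ranged from 4.82 to 5.27. The lower end, chosen after the data were seen, keeps the median of all names at -0.24 under library size scaling. With a pseudocount of 0.1 CPM, 9 instead of 8 were over 16-fold higher. The summed TPM averaged 5066 and fell to 1545 on the longest assembled genes and 1546 on those of at least 500 bases, which leave out the short ALB fragment. The other carriers averaged 27.6% of ALB TPM, but 48.9% on counts, 136% on the longest assembled genes, 137% on those of at least 500 bases and 49.6% with TPM recomputed over full length; the last 2 were chosen after the data were seen. Without each replicate in turn, summed TPM ranged from 231 to 9900.5, the share of ALB from 23.9% to 31.2% and the share of counts from 0.0197% to 0.690%. No paired analysis was possible because both libraries belong to the same group. Low counts in replicate 2 limit the size of the ratios: with a pseudocount of 0.1 CPM the log2 ratio was 5.02 instead of 4.51 for TTR, 5.46 instead of 5.04 for AGT and 4.87 instead of 3.66 for SERPINA6. The spread between animals is unknown.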
